A study of Homo sapiens with 50 samples.

Results

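Short hairpin RNAs (shRNAs) against enzymes that methylate lysines 36 and 79 of histone H3 and lysine 20 of histone H4 were followed through the replicative lifespan of IMR90 cells. They were picked from the deposited hairpin table by gene name: a single name beginning with SUV420H or WHSC1, or exactly SETD2, SETD3, SETD8, ASH1L, NSD1 or DOT1L. The names were chosen with earlier results of these data known. This rule gave 48 of 3443 hairpins, against 10 genes. ASH1L, DOT1L, SETD2, SETD3, SUV420H1, SUV420H2, WHSC1 and WHSC1L1 had 5 hairpins each, and NSD1 and SETD8 had 4. Of the 188 hairpins that name several genes, 0 named any of these 10. SETD8, SUV420H1, SUV420H2, WHSC1 and WHSC1L1 are older names of KMT5A, KMT5B, KMT5C, NSD2 and NSD3 in RefSeq.

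IMR90 is a human lung fibroblast line whose divisions come to an end in culture, a state called replicative senescence. All cultures grew at 3% oxygen and received lentiviral hairpin pools at a multiplicity of infection of 0.3, so that most infected cells carry a single hairpin. Genomic DNA was taken from the 10 infected plates at population doublings (PD) 40, the proliferating reference, 45, 50, 55 and 60, when the cells were senescent, and hairpins were counted by sequencing. By the design text each hairpin entered 4 of the 10 paired pools; the deposited table has 1 column per doubling, treated here as pooled over the plates. The columns held 8270745 to 11505688 tags. There was therefore no replicate, and the spread between cultures is not measured by any value given here. How far any hairpin lowered its target was not analysed here, and no file used here gives hairpin sequences.

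Methylation of H3K36 follows transcription. SETD2 places the trimethyl mark on the bodies of active genes, while NSD1, WHSC1 and WHSC1L1, the NSD family, place lower states over wider regions, and ASH1L is another H3K36 methyltransferase, of the Trithorax group. DOT1L is the methyltransferase of H3K79, a site in the globular core of the histone, and differs from the others in having no SET domain. H4K20 is methylated stepwise: SETD8 adds the first methyl group, with a role in replication and chromosome compaction, and SUV420H1 and SUV420H2 carry it to the higher states. SETD3 was first described as an H3K36 enzyme and later as a histidine methyltransferase of actin. The screen asked which regulators limit lifespan, since a cell whose hairpin lowers such a regulator should outgrow the others.

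Of the 48 hairpins, SETD2 TRCN0000003033 was the single one with a gain of over 2-fold by PD60 relative to PD40, and 46 were over 2-fold lower. The remaining one, ASH1L TRCN0000016169, lay within 2-fold. Of 3418 hairpins tested in the table, 2.28% were higher by that margin and 95.3% lower, so the shares of these hairpins, 2.08% and 95.8%, were close to those of the library. Calls were made on the log2 fold change of CPM, tag counts scaled to equal column totals, with a pseudocount of 1 CPM, for hairpins with at least 10 tags in either column. All 48 had that number, as each had at least 74 tags at PD40. The median log2 fold change at PD60 was -5.80, against -5.86 over all hairpins.

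Directions are relative to the column total, in which every hairpin of the library shares. With TMM scaling, which uses a trimmed mean of the hairpins' ratios in place of the total, 10 of the 48 were over 2-fold higher at PD60 and 30 over 2-fold lower, and 18.8% and 64.4% of all hairpins were. The median of the 48 was then -1.78, and that of all hairpins -1.84. On the column totals, the median of the 48 was -8.15 with a pseudocount of 0.1 CPM and -3.21 with one of 10 CPM. With totals that leave out the 50 hairpins most abundant in any column, 3 (6.25%) were over 2-fold higher, beside 5.76% of all hairpins.

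The share of all tags held by the 48 hairpins was 0.752% in the PD40 column (95% exact binomial interval 0.746 to 0.758), 1.75% in the next, then 1.14% and 0.889%, and 3.41% in the PD60 column (3.39 to 3.42). The high shares came from 2 hairpins. ASH1L TRCN0000016169 made up 60.2% of the group's tags at PD45, and SETD2 TRCN0000003033 97.7% at PD60. Without both, the other 46 held 0.574%, 0.617%, 0.381%, 0.0602% and 0.00704% of tags at the 5 times, 49540 tags at PD40 and 582 at PD60.

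Loss of detectable hairpins ran close to that of the library. None of the 48 was at 0 tags at PD40 or PD45, 3 were at PD50, 9 at PD55 and 19 at PD60. That last number is 39.6%, against 44.1% of the whole table at 0 tags at PD60. A count of 0 at PD60 allows a level of up to 0.363 CPM (3 tags). A further 15 of the 48 had 1 to 9 tags at PD60, and 3 had over 100: SETD2 TRCN0000003033, ASH1L TRCN0000016169 and NSD1 TRCN0000061357. That is 6.25% of the group, against 13.9% of all hairpins with over 100 tags. Because PCR copies carry no molecular identifiers, this floor and all 95% intervals cover counting error only.

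The hairpins were depleted less at PD45 than later. At that time, 6 of 48 hairpins (12.5%) were over 2-fold higher than at PD40, against 5.73% of all hairpins, and 26 (54.2%) were over 2-fold lower, against 63.2%. The 6 targeted 6 different genes: ASH1L, DOT1L, NSD1, SETD2, SUV420H1 and WHSC1. With TMM scaling 13 of 48 were over 2-fold higher at PD45, beside 19.8% of all hairpins. The median log2 fold change was -1.16 in the group and -1.63 over all hairpins. These are descriptions of 1 pair of columns, and whether the shares differ beyond the spread between cultures was not tested.

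On column totals, the higher levels of these 6 hairpins did not last. At PD50, 4 of the 6 were still over 2-fold higher than at PD40, at PD55 1 was (DOT1L TRCN0000020210), and at PD60 0 were, 5 being over 2-fold lower. Of the 196 hairpins of the library over 2-fold higher at PD45, 15.8% were so at PD60 and 73.5% were over 2-fold lower. At PD50 a total of 5 of the 48 were over 2-fold higher (4.94% of all hairpins) and 37 lower (81.9%). At PD55 there were 2 higher (2.92%), the DOT1L hairpin and SETD2 TRCN0000003033, and 45 lower (91.7%). With TMM scaling the direction at PD60 differed for those of the 6 tried singly. The log2 fold change was then 5.91 for ASH1L TRCN0000016169, 2.59 for NSD1 TRCN0000061357 and 2.31 for DOT1L TRCN0000020210. With that scaling 18.8% of all hairpins were over 2-fold higher at PD60.

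Step by step, each interval after PD45 was a loss for most of the group. From PD45 to PD50, 0 of the 46 hairpins with enough tags were over 2-fold higher (2.22% of all hairpins) and 31 lower (71.4%). From PD50 to PD55, 1 of 35 was higher (1.70%) and 31 lower (80.8%), and from PD55 to PD60, 1 of 25 was higher (5.40%) and 18 lower (73.2%). The hairpin higher in each of the last 2 steps was SETD2 TRCN0000003033. The highest CPM of a hairpin was at PD40 for 36 of the 48, at PD45 for 10, at PD50 for 1 (NSD1 TRCN0000061357) and at PD60 for 1, SETD2 TRCN0000003033. Of all hairpins 80.4% were highest at PD40 and 12.0% at PD45.

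A linear trend of log2 abundance per doubling was fitted to all 3116 hairpins with at least 10 tags in at least 2 columns, 46 of the 48 among them. Its error is the departure of 5 serial columns from a straight line, not the spread between cultures. By edgeR's quasi-likelihood test on total counts with Benjamini-Hochberg adjustment, 1 of the 46 rose, SETD2 TRCN0000003033, and 40 fell, beside 0.866% rising and 85.9% falling of all hairpins tested. Without the PD45 column 25 of 35 tested fell (71.4%), beside 75.5% of all hairpins tested. In the fit to all 5 columns, the 5 with no call were SETD2 TRCN0000003029, ASH1L TRCN0000016169, WHSC1 TRCN0000019817, DOT1L TRCN0000020210 and NSD1 TRCN0000061357. With TMM scaling 2 rose, both against SETD2, and 12 fell, beside 11.4% and 30.0% of all hairpins. The 2 not tested, SETD3 TRCN0000143640 with 79 tags at PD40 and SETD8 TRCN0000148268 with 74, had the fewest tags of the group at the start and 0 at PD60.

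SETD2, which makes H3K36 trimethylation, had the widest spread among its hairpins of the 10 genes at PD60. TRCN0000003033 had 3475, 7006, 7499, 69351 and 275135 tags at the 5 times, or 403, 798, 884, 6028 and 33266 CPM. It was 1.98-fold higher at PD45 (95% counting interval 1.90 to 2.06) and 2.20-fold at PD50 (2.11 to 2.29), with a ratio of 1.11 between them (1.07 to 1.15). It then gained 6.82-fold from PD50 to PD55 (6.66 to 6.98) and 5.52-fold from PD55 to PD60 (5.47 to 5.57). In the library it moved from rank 588 at PD40 to ranks 252, 186, 28 and 9. Its slope was 0.31 log2 per doubling (edgeR adjusted p = 0.000498) with total counts and 0.66 (edgeR adjusted p = 0.00318) with TMM, and it rose without any one of the columns as well.

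The other SETD2 hairpins did not follow it. TRCN0000003030 had 1136, 2959, 2542, 264 and 18 tags, so it was 2.56-fold higher at PD45 (2.39 to 2.74) and 60.5-fold lower at PD60. TRCN0000003032 had 1926, 2044, 359, 54 and 16 tags, level with its start at PD45 (ratio 1.04, 0.979 to 1.11) and 115-fold lower at PD60. TRCN0000003031 was the fastest to go, with 1099, 72, 1, 3 and 0 tags, at least 351-fold lower at PD60. TRCN0000003029 was the rarest of the 5 and the flattest: 223, 97, 77, 54 and 80 tags, 2.67-fold lower at PD60 than at PD40 on the ratio of CPM. It stood at 4.69 CPM at PD55 and 9.67 CPM at PD60, a ratio of 2.06 (1.44 to 2.97), which the pseudocount of 1 CPM brings under the 2-fold limit of the calls. Its slope did not pass with total counts (-0.077, edgeR adjusted p = 0.177) and was upward with TMM (0.27, edgeR adjusted p = 0.00714).

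The gene mean for SETD2 at PD60 was -2.72 on the log2 scale (SD 5.53 over 5 hairpins), rank 14 of 631 genes with at least 3 hairpins, and 3.03 with TMM scaling. The median over its hairpins was -5.38. Without TRCN0000003033 the mean was -4.99 (SD 2.53), above the median gene mean of -5.59 and between the quartiles of all gene means (-6.19 and -4.86). The sum of SETD2 tags was 36.5-fold higher at PD60 than at PD40 (35.7 to 37.4), and 275135 of its 275249 tags there were those of 1 hairpin.

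For ASH1L the most abundant hairpin of the group at PD40, TRCN0000016169, had 11845, 92730, 57189, 25980 and 5978 tags, or 1373, 10558, 6744, 2258 and 723 CPM. It was 7.69-fold higher at PD45 (7.54 to 7.84), when it ranked 11 of all hairpins, then 4.91-fold at PD50, 1.64-fold at PD55 (1.61 to 1.68), and 1.90-fold lower at PD60. Its log2 change at PD60 was -0.92 on column totals, 1.76 on totals without the 50 most abundant hairpins and 5.91 with TMM scaling, so its direction there depends on the scaling. Its slope was -0.14 with total counts (edgeR adjusted p = 0.235) and 0.23 with TMM (edgeR adjusted p = 0.0550).

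The other 4 ASH1L hairpins started at 451 to 1308 tags and ended at 0 to 3. All 4 had falling trends, as 85.9% of all hairpins tested did. TRCN0000016168 held longest among them, at 293 tags at PD45, 1.57-fold lower than at PD40. TRCN0000016170, TRCN0000016171 and TRCN0000016172 were already 4.76-fold, 4.33-fold and 4.42-fold lower at PD45, with 166, 121 and 301 tags. By PD50 all 4 had 13 to 28 tags. The ASH1L mean at PD60 was -5.15 (SD 2.44), and -6.20 (SD 0.74) without TRCN0000016169.

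NSD1, the largest NSD family member, showed the same division between 1 hairpin and the others. TRCN0000061357 had 4441, 14292, 14217, 2083 and 226 tags, 3.16-fold higher at PD45 (3.06 to 3.27), 3.26-fold at PD50 (3.15 to 3.37), 2.84-fold lower at PD55 and 18.8-fold lower at PD60. It was the hairpin of the group with its highest CPM at PD50. TRCN0000061356 had 2016, 1304, 208, 13 and 6 tags. TRCN0000061354, with 594, 152, 11, 5 and 3, and TRCN0000061353, with 552, 16, 3, 0 and 1, were lost sooner. The last was 35.1-fold lower at PD45, next to DOT1L TRCN0000020213 the largest early loss of the group. The NSD1 mean at PD60 was -5.70 (SD 1.19, 4 hairpins).

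For WHSC1, the NSD family gene deleted in Wolf-Hirschhorn syndrome, 2 hairpins stood higher at PD45 and 3 lower. TRCN0000019816 had 1485, 3794, 1834, 260 and 38 tags, 2.51-fold higher at PD45 (2.36 to 2.67). TRCN0000019817 had 1602, 3246, 2168, 770 and 33 tags, 1.99-fold higher at PD45 (1.87 to 2.11), just inside the 2-fold limit, and 1.38-fold higher at PD50. Both were 37.5-fold or more lower at PD60. TRCN0000019814 had 1579 tags at PD40, as many as these, but 304, 33, 0 and 0 afterwards, at least 505-fold lower at PD60. Like it, TRCN0000019815 (256 to 14 tags) and TRCN0000019818 (589 to 104 tags) were over 5-fold lower at PD45. The WHSC1 mean at PD60 was -5.72 (SD 1.09).

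WHSC1L1, its close relative, had 0 hairpins above their start at PD45. TRCN0000015616 had 2830, 2774, 1269, 202 and 13 tags, level with its start at PD45 (ratio 0.963, 0.913 to 1.01). TRCN0000015617 had 2301, 1515, 240, 38 and 0 tags and was at least 735-fold lower at PD60. TRCN0000015615 had 1210, 733, 370, 99 and 4 tags, TRCN0000015614 1487, 539, 52, 5 and 3, and TRCN0000015613 244, 56, 3, 0 and 0. All 5 fell in the trend test, as 85.9% of all hairpins tested did. The mean at PD60 was -6.70 (SD 1.16), rank 558 of 631 genes. Its hairpins started at a median of 1487 tags, against 838 over the 48, and the change measurable before a hairpin runs out of tags is larger the higher it starts.

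DOT1L, the H3K79 methyltransferase, had the hairpin that stayed over 2-fold above its start for longest apart from SETD2 TRCN0000003033. TRCN0000020210 had 615, 2396, 1848, 1818 and 28 tags, or 71.3, 273, 218, 158 and 3.39 CPM. It was 3.83-fold higher at PD45 (3.50 to 4.19), 3.06-fold at PD50 (2.79 to 3.35) and 2.22-fold at PD55 (2.02 to 2.43), then 21.1-fold lower at PD60. TRCN0000020211 declined slowly, with 766, 372, 312, 93 and 23 tags. TRCN0000020212 (1083 to 131 tags), TRCN0000020209 (275 to 49) and TRCN0000020213 (608 to 16) were 8.42-fold, 5.71-fold and 38.7-fold lower at PD45, and each had 0 or 1 tags at PD60. The DOT1L mean was -1.82 at PD45 (SD 2.46), rank 367, and -5.33 at PD60 (SD 1.17), rank 260.

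The H4K20 enzymes had the fewest tags left. The share of their 14 hairpins in all tags was 0.164% at PD40 and 0.000339% at PD60, when the highest had 15 tags. All 14 were over 2-fold lower at PD55 and at PD60, as 91.7% and 95.3% of all hairpins were. Of the 24 hairpins against the 5 H3K36 genes, 22 were over 2-fold lower at PD60. The medians at PD60 were -6.27 for H4K20, -5.80 for H3K36 and -5.04 for the 5 DOT1L hairpins, beside -5.86 over all hairpins. The 14 hairpins started at a median of 711 tags, those of the H3K36 genes at 1259 and those of DOT1L at 615. No test compares these sets.

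SETD8, the monomethyltransferase of H4K20, had low starting counts and 0 hairpins over 2-fold higher at any time. Of all hairpins, 5.73%, 4.94%, 2.92% and 2.28% were over 2-fold higher at PD45, PD50, PD55 and PD60. TRCN0000128082 had 745, 646, 164, 10 and 1 tags and was 1.17-fold lower at PD45 (ratio 0.852, 0.765 to 0.948). TRCN0000130036 had 430, 90, 3, 0 and 0 tags, TRCN0000130139 361, 55, 1, 3 and 2, and TRCN0000148268 74, 3, 0, 0 and 0. These 3 were 4.86-fold, 6.68-fold and 25.1-fold lower at PD45. The SETD8 mean at PD45 was -1.95 (SD 1.18, rank 404), the lowest of the 10 genes, and at PD60 -5.08 (SD 1.31). In sum the gene had 1610 tags at PD40 and 3 at PD60.

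SUV420H1 and SUV420H2 are the paired enzymes of the higher H4K20 methylation states. For SUV420H1, TRCN0000130417 had 1372, 3774, 2003, 290 and 5 tags, 2.70-fold higher at PD45 (2.54 to 2.88), 1.49-fold at PD50 and 263-fold lower at PD60. Its other 4 hairpins were 2.29-fold to 8.35-fold lower at PD45, and all 4 were at 0 at PD60: TRCN0000128012 went from 1022 tags to 454 at PD45, TRCN0000130388 from 387 to 136, TRCN0000130307 from 541 to 66 and TRCN0000129968 from 233 to 32. The SUV420H1 mean was -1.35 (SD 1.71) at PD45 and -5.97 (SD 0.85) at PD60.

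The 5 SUV420H2 hairpins lay close together, with the smallest SD of the 10 genes at PD45 (0.45, mean -0.55, rank 64 of 631), PD55 (0.96) and PD60 (0.73). TRCN0000143766 had 2998, 3084, 1445, 190 and 15 tags, and TRCN0000141493 3006, 2105, 224, 42 and 3. These 2 hairpins of equal starting level were thus 2.04-fold and 13.2-fold lower at PD50. TRCN0000141258 had 1594, 721, 157, 21 and 1 tags, TRCN0000142036 730, 427, 29, 2 and 1, and TRCN0000141926 691, 572, 490, 30 and 0. At PD45 1 of the 5 was over 2-fold lower, at PD50 4 were, and at PD55 all 5, beside 63.2%, 81.9% and 91.7% of all hairpins. The mean at PD60, -6.99, was the lowest of the 10 genes on column totals (rank 590), while with TMM scaling SUV420H1 was lower (-2.51 against -2.39). SUV420H2 also had the highest median start of the 10 genes, 1594 tags, and so the most room to fall before its tags ran out. Its mean at PD45 was above the median gene mean of -1.63.

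SETD3 had 2 hairpins that held through PD45. TRCN0000121628 had 1181, 2371, 1275, 382 and 36 tags, 1.97-fold higher at PD45 (1.84 to 2.12), just inside the 2-fold limit, and 1.10-fold higher at PD50. TRCN0000122097 had 900, 1023, 500, 115 and 20 tags. TRCN0000143148 had 984, 666, 27, 5 and 0, TRCN0000139106 245, 92, 3, 0 and 0, and TRCN0000143640 79, 9, 0, 4 and 0. The SETD3 mean was -0.63 (SD 1.28) at PD45, rank 80, and -4.94 (SD 1.25) at PD60.

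By gene, SETD2, SUV420H2 and SETD3 had the highest means at PD45 (-0.51, -0.55 and -0.63) and SETD8 and DOT1L the lowest (-1.95 and -1.82). The SD over hairpins ran from 0.45 to 2.58 at PD45, and each step between neighbours in this order was smaller than the SD of either gene. At PD60 the order ran from SETD2 (-2.72) through SETD3, SETD8, ASH1L, DOT1L, NSD1, WHSC1, SUV420H1 and WHSC1L1 to SUV420H2. The order depends on the pseudocount of 1 CPM, which weighs most on hairpins with few tags left. With TMM it was SETD2 (3.03), NSD1 (-0.27), ASH1L (-0.72), SETD3, DOT1L, WHSC1, SETD8 (-1.55), WHSC1L1, SUV420H2 and SUV420H1. Scaling multiplies every ratio by the same factor, so it changes the order only through the pseudocount. On column totals with a pseudocount of 0.1 CPM, NSD1 (-6.94) was likewise next after SETD2 (-3.60). SETD8 (-7.74) there came after WHSC1 (-7.61). In the order first given for PD60, each step between neighbours below SETD3 was again smaller than the SD of either gene. The step from SETD2 to SETD3 was smaller than the SETD2 SD of 5.53 but not than that of SETD3.

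Starting abundance went with the outcome among these hairpins. When the library was divided into quintiles of tags at PD40, 8 of the 48 fell in the lowest, and 7 of these were at 0 at PD60, while of the 5 in the highest 0 were, beside 84.5% and 1.45% of all hairpins in these quintiles. In the quintiles between, from low to high, 5 of 13, 5 of 13 and 2 of 9 were at 0 (38.5%, 38.5% and 22.2%), beside 69.8%, 45.7% and 19.2% of all hairpins. The lowest of these was thus the quintile in which the group's share at 0 stood furthest from the library's, a description with no test. The median log2 fold changes at PD60 in that quintile were nearly equal, -5.74 in the group and -5.75 over all hairpins. Apart from DOT1L TRCN0000020210 with 28 tags, the group's hairpins above 0 there had no more tags at PD60 than a count of 0 allows. Of the 5 in the highest quintile, 2 were over 2-fold higher at PD45 and 1 at PD60, beside 11.5% and 6.24% of all hairpins in it. The part of starting abundance in these outcomes was not tested.

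The non-targeting control hairpin had 4562, 1775, 669, 133 and 39 tags, 112-fold lower at PD60. More negative log2 fold changes than its own were found for 21 of the 48 hairpins at PD45 and, at the later times in turn, for 29, 19 and 15. The share of the 48 above it was 56.3%, 39.6%, 60.4% and 68.8% at the 4 times, beside 44.7%, 39.3%, 61.4% and 65.7% of all hairpins. The control started at 529 CPM, and with the pseudocount a hairpin that starts lower has less room to fall. ASH1L TRCN0000016168, with 451 tags at PD40 and 0 at PD60, had -5.74 and so counted as above the control (-6.53). These shares are therefore no measure of growth relative to the control. As 1 hairpin in 1 column a time, the control gives no spread for untargeted cells.

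Hairpins of the lists for H3K4, H3K9 and H3K27 methyltransferases were mostly over 2-fold lower at PD60, as 95.3% of all hairpins were. Of all hairpins 2.28% were over 2-fold higher. Of 44 hairpins against 9 H3K4 methyltransferases 2 were over 2-fold higher at PD60 and 42 lower (median -4.96); of 30 against 6 H3K9 enzymes 1 and 29 (median -5.90); and of 12 against EZH1 and EZH2, which methylate H3K27, 0 and 11 (median -5.73). By edgeR's trend test 0.866% of all hairpins tested rose and 85.9% fell. In the lists, 2 of 40 H3K4 hairpins rose and 35 fell, and 0 of 28 H3K9 hairpins rose and 23 fell. For H3K27, 0 of 12 hairpins rose and 10 fell. There too single hairpins stood apart. PRDM9 TRCN0000016807 had 8643, 51800, 180207, 137274 and 280379 tags, a ratio of 33.8 at PD60 (33.1 to 34.6), and for both PRDM9 (mean -3.02, SD 4.61) and SETD7 (mean -3.83, SD 4.98) 1 of 5 hairpins was over 2-fold higher.

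Hairpins against proteins that remove or read these marks were nearly all lower at PD60, as 95.3% of all hairpins were. As 2.28% of all hairpins were over 2-fold higher, counts of 0 in lists of 29 to 49 hairpins do not set these lists apart. Of 29 hairpins against 6 H3K36 demethylases 0 were over 2-fold higher at PD60 and 29 lower (median -5.75), with JMJD2A at a mean of -4.86 (SD 2.63) and FBXL11, the older name of KDM2A, at -6.93 (SD 0.48). Of 49 against 10 readers of H3K36 methylation, 0 were higher and 48 lower (median -6.56), with DNMT3A, a DNA methyltransferase, at -4.14 (SD 2.35) and MORF4L1, a chromodomain protein, at -7.40 (SD 1.11). For the 30 hairpins against 6 readers and erasers of H4K20 methylation it was 0 and 30 (median -5.51). In these 3 lists 0 hairpins rose by edgeR's trend test, and 26 of 29, 41 of 47 and 26 of 28 fell. Over all hairpins tested, 0.866% rose and 85.9% fell. Of 20 hairpins against 4 genes of the pathway that destroys SETD8 in S phase, 2 were higher, both against DDB1 (mean -2.78, SD 5.15), and 18 lower, while 1 of 17 rose and 11 fell by edgeR's trend test. For the partners of DOT1L 0 hairpins were matched in the table.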

How the data were processed

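The authors deposited counts of sequence tags per hairpin, per the file headers 1 column for each population doubling. Per the submitters' processing notes Bowtie 1.0.1 was used; sources used here do not state its settings or how 50 samples became 5 columns. Columns were taken as pooled over 10 plates, as each name matches all samples of that doubling. Members and gene lists were chosen with earlier results of these data known. All members may be named; of each list, the 2 highest and 2 lowest gene means (at least 3 hairpins) may be.

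Tags were scaled to column totals (8270745 to 11505688). Ratios carry exact 95% conditional binomial intervals. Only in folds given as "at least" was a count of 0 raised to a floor of 3 tags. Those folds leave out the counting error at PD40, and the exact 95% intervals of the same ratios reach to smaller folds. Log2 fold changes, calls and trends used the count of 0 itself. Trends used edgeR 4.0.16 in R 4.3.3 (adjusted p under 0.05), with DESeq2 1.42.0 as an alternative. The fit was also run on simulated independent columns with as many rising as falling hairpins. That setting differs from these serial columns, in which most hairpins fell, so it is no check of the calls given here. Other values used Python 3.11.15, numpy 2.4.6, pandas 2.3.3 and scipy 1.17.1. Old gene names were matched to RefSeq assembly GRCh38.p14, all 10 with 1 match. Alternatives covered scaling, pseudocounts, count minimums, end points, columns and hairpins.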

Additional observations from a re-analysis of the deposited data

How the results depend on the processing

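No paired analysis was possible because the columns carry no plate or replicate number; the fit with a replicate block was therefore not run. There were 7 alternatives (scaling, pseudocount, count minimum, end points). The 1 hairpin over 2-fold higher at PD60 became 10 with TMM scaling, beside 18.8% of all hairpins. It became 3 with totals that leave out the 50 most abundant hairpins, beside 5.76% of all hairpins. The 46 lower became 30 with TMM, beside 64.4% of all hairpins. The 6 hairpins higher at PD45 became 13 with TMM, beside 19.8% of all hairpins. The median log2 fold change at PD60 of -5.80 was -1.78 with TMM, -8.15 with a pseudocount of 0.1 CPM and -3.21 with one of 10 CPM. The share of tags at PD60, 3.41%, was 0.0793% without the most abundant hairpin of the group.

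The 1 rising hairpin of the trend test became 2 with TMM in edgeR, 3 with DESeq2's size factors in edgeR and 4 with DESeq2's Wald test, and the 40 falling became 12, 16 and 14. Of all hairpins 11.4%, 13.5% and 15.2% rose in these 3 fits and 30.0%, 36% and 30.3% fell. Without PD45 25 of 35 tested fell, beside 75.5% of all hairpins. Among the 10 gene means and the 4 hairpins tried singly, TMM turned the sign of the SETD2 mean (3.03), of ASH1L TRCN0000016169 (5.91), of NSD1 TRCN0000061357 (2.59) and of DOT1L TRCN0000020210 (2.31). Leaving out each hairpin in turn gave gene means of -7.17 to -1.65, all negative. The causes of these shifts were not tested beyond the change of scale, pseudocount or columns that each alternative makes. With 1 column per doubling, depth gives counting error alone.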
